A study of Mus musculus with 34 samples.

Results

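The clustered protocadherins are the genes of 3 neighbouring arrays, alpha, beta and gamma, and 57 protein-coding members were found in the count tables by their mouse symbols, 14 in the alpha, 22 in the beta and 21 in the gamma array. They were followed among the 48709 genes listed for the Control and Mta123KO libraries and the 22018 listed for the single mutants. Pcdhgb8, annotated as a polymorphic pseudogene, was left out. One Ensembl gene that shares the symbol Pcdha11 with its neighbour was called Pcdha10 by its RefSeq position.

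The 34 libraries are RNA-seq of mouse embryonic stem cells of strain 129/Ola. Control and Mta123KO, the latter lacking all 3 MTA proteins of the NuRD chromatin remodelling complex, were each sampled as 2iL (2 kinase inhibitors and LIF, which hold the cells in the naive state) and as 48h (N2B27 medium after removal of 2i and LIF), with 2 libraries from each of 2 lines per group. The Control lines themselves carry 1 deleted and 1 intact Mta1 allele and floxed Mta3, and the mutant lines were made with Cre from a line already lacking Mta1 and Mta2. The single mutants, all in 2i with LIF, are Mta1_del/del, Mta2_KO and Mta3_del/del with their parents Mta1_flox/flox, Mta2_WT and Mta3_flox/flox, 3 libraries each. Mta2_KO is a single primary line, and Mta1_del/del and Mta3_del/del were derived from their floxed parents with Cre.

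Protocadherins of these arrays are cadherin-like cell-surface proteins that bind the same isoform on an opposing cell, and neurons use different combinations of them to tell their own branches from those of other neurons. Each alpha or gamma gene is a variable first exon with its own promoter, spliced to 3 constant exons at the end of its array, whereas each beta gene is a single exon. Most variable promoters are chosen at random in neurons, through DNA methylation, antisense transcription and looping by CTCF and cohesin, while the C-type members Pcdhac1, Pcdhac2, Pcdhgc3, Pcdhgc4 and Pcdhgc5 are regulated more steadily. Smchd1, Setdb1 and Dnmt3b are known to repress these arrays or to methylate their promoters. All members lie on the plus strand of chromosome 18 (GRCm38), alpha at 36930184 to 37187661, beta at 37264938 to 37524479 and gamma at 37661793 to 37841873.

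Library totals ran from 37.9 to 57.6 M counts in the Control and Mta123KO libraries and from 13.1 to 40.6 M in the single mutants. The targeted genes were lower in the mutants, though not all to the same degree. Mta2 fell from 110–128 CPM (counts scaled to a common library total) in Control_2iL and 185–203 in Control_48h to 4.75–10.4 over both mutant groups. Mta3 fell 3.39 times labelled 2iL and 2.70 times labelled 48h, while Mta1, of which Control lines carry 1 intact allele, was 1.69 and 1.59 times lower and not called. In the single mutants Mta2 (22.6 times lower) and Mta3 (6.21 times) were called, and Mta1 in Mta1_del/del, at 43.4 ± 4.41 against 84.5 ± 17.2 CPM (SD, n = 3), was not. The culture labels went against the markers: the summed naive markers stood at 738–787 CPM in Control_2iL and 4473–4891 in Control_48h, and the formative markers at 908–1475 and 85.1–96.9 CPM. The names of the deposited tables also give the opposite culture. The labels were followed, so that "labelled 2iL" and "labelled 48h" are used below, and exchanging them would exchange both mutant comparisons and reverse every culture change. All 7 trophoblast markers were called higher in Mta123KO labelled 2iL (summed 110–452 CPM against 18.9–22.6) and 4 of 7 labelled 48h (173–767 against 82.4–101). In bulk RNA, fewer cells of a type and less RNA per cell cannot be told apart.

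In the Control and Mta123KO tables the counts of the gamma members were nearly equal in every library: the lowest was 96.0–98.7% of the median member and held 1571–3027 reads. In the single mutants the lowest gamma count was 1–28 reads, or 4.35–25.8% of the median. The alpha array showed the same contrast, with a lowest count of 2–58 reads (75.0–100% of the median) in the first set and 0 in every single-mutant library. Members of the alpha array share 2860 exonic bases, the gamma members 2116, and beta members none. For the Control and Mta123KO libraries the lowest count of an array in a library was therefore kept as its shared reads, and each member's count minus that lowest count as its own reads, a lower bound chosen after seeing the data. Pcdhga6 was the lowest gamma member in all 16 libraries, so its own reads are 0 by construction.

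**Figure D1:**
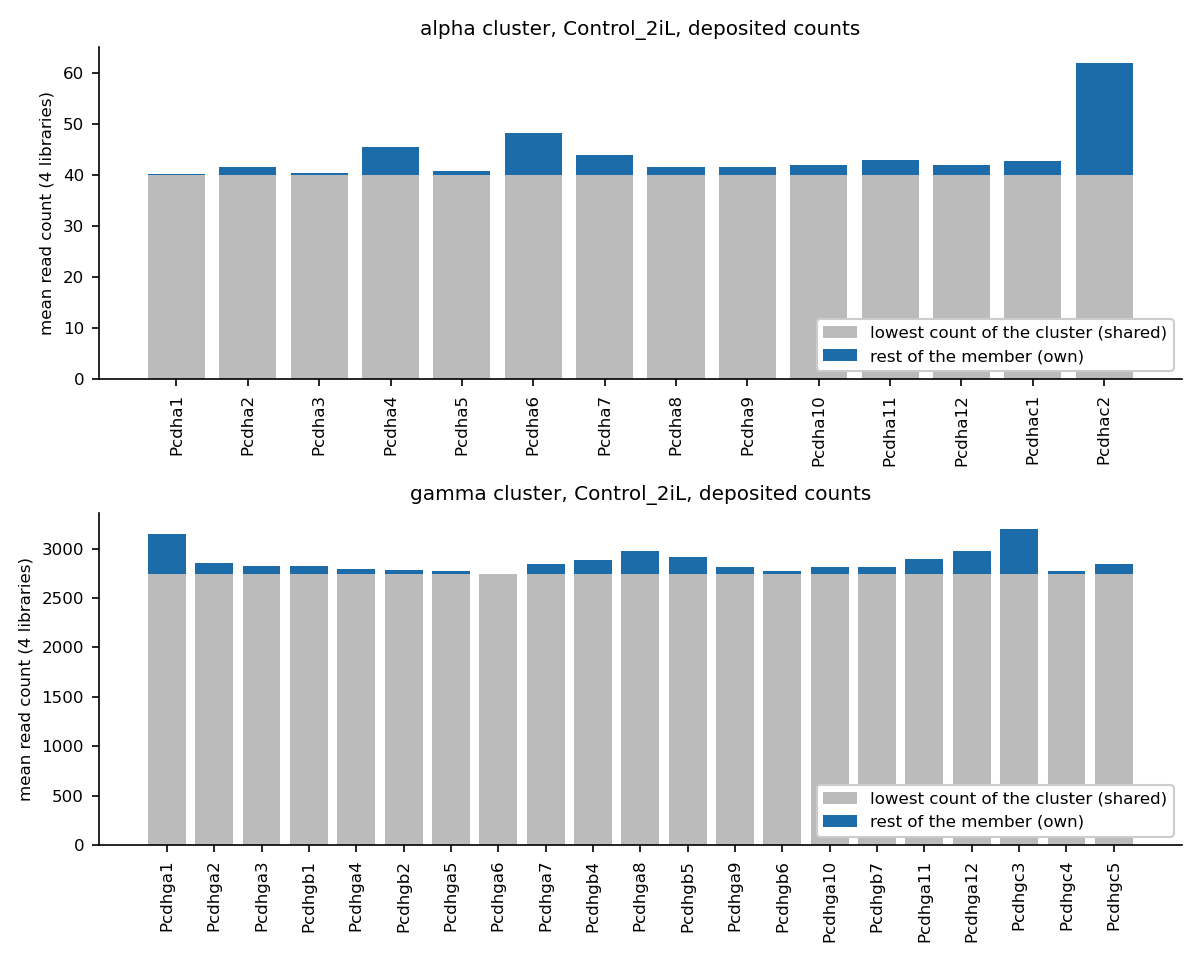
Mean read count per member in the 4 Control_2iL libraries for the alpha and gamma arrays, in chromosome order, stacked as shared reads (the lowest count of the array) and own reads (the remainder). The shared part makes up nearly the whole of each gamma bar, and Pcdhgc3 and Pcdhga1 have the tallest own parts.

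Per kilobase, the shared gamma reads stood at 27.0 CPM in Control_2iL, and the own reads of the gamma members summed to 17.5 CPM. The alpha array was far lower, with 0.288 CPM per kilobase of shared reads and 0.410 for the sum of its members' own reads. Among own levels per kilobase averaged over the 4 groups, Pcdhgc3 led at 3.49 CPM, followed by Pcdhga1 at 1.498, Pcdhga8 at 1.18 and Pcdhga11 at 1.12. Behind Pcdhgc3 the order differed between genotypes: Pcdhga1 stood at 2.56 and Pcdhga11 at 1.19 CPM per kilobase in Control_2iL, but at 0.804 and 1.04 in Mta123KO_2iL and at 0.640 and 1.43 in Mta123KO_48h. The highest beta members were Pcdhb17 at 0.0212, Pcdhb22 at 0.0195 and Pcdhb2 at 0.0138 CPM per kilobase. The highest alpha member was Pcdhac2 at 0.0499, ahead of Pcdha6 and Pcdha7.

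The alpha array was lower in Mta123KO than in Control labelled 2iL. Its shared reads numbered 58, 42, 29 and 31 in the Control libraries and 7, 3, 7 and 4 in Mta123KO. All Control libraries lay above all mutant ones. The level fell from 0.825 ± 0.248 to 0.119 ± 0.0492 CPM (SD, n = 4), which is 6.82 times lower (log2 fold change −2.77, SE 0.35, adjusted p = 0.00025, edgeR quasi-likelihood test with Benjamini-Hochberg adjustment over all genes tested, used throughout). With the counts as deposited, 14 of 14 alpha members were called lower, by log2 fold changes of −2.90 to −2.14 with a median of −2.67, beside a median of 0.01 over all genes. A call required an adjusted p below 0.05 together with a change of more than 1 on the log2 scale, and 7.43% of all genes tested were called lower. These 14 calls are close to 1 measurement, since the members share their reads, and they passed the filter on low counts only through the Control_2iL libraries, so they had to differ.

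Of the own alpha reads, only those of Pcdhac2 were deep enough to test. Pcdhac2, the C-type member at the end of the array, had 35, 22, 18 and 13 own reads in Control_2iL and 3, 1, 3 and 2 in Mta123KO_2iL. The groups did not overlap, and Pcdhac2 fell from 0.452 ± 0.178 to 0.0508 ± 0.0226 CPM (log2 fold change −3.09, SE 0.44, adjusted p = 0.00044). These own reads passed the filter on low counts only through Control_2iL, so the groups had to differ. Pcdha6 had 13, 7, 7 and 6 own reads against 3, 3, 3 and 0. Pcdha7 had 4, 5, 3 and 4 against 3, 1, 7 and 4, with overlapping groups.

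The beta array was nearly silent, with 50–69 reads over its 22 members in a Control_2iL library and 5–23 in Mta123KO_2iL. Its summed level was 1.27 ± 0.18 CPM in Control_2iL and 0.362 ± 0.207 in Mta123KO_2iL (SD, n = 4). Pcdhb17 was the 1 beta member that passed the filter. It had 17, 14, 19 and 16 reads in Control_2iL and 1, 0, 2 and 2 in Mta123KO_2iL, with no overlap. Its log2 fold change was −3.48 (SE 0.48, adjusted p = 0.00037), and like Pcdhac2 it passed the filter only through Control_2iL. The other 2 leading members were not tested: Pcdhb22 had 10, 3, 7 and 9 reads against 6, 2, 4 and 5, and Pcdhb2 had 5, 3, 3 and 7 against 0, 0, 4 and 3.

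**Figure D2:**
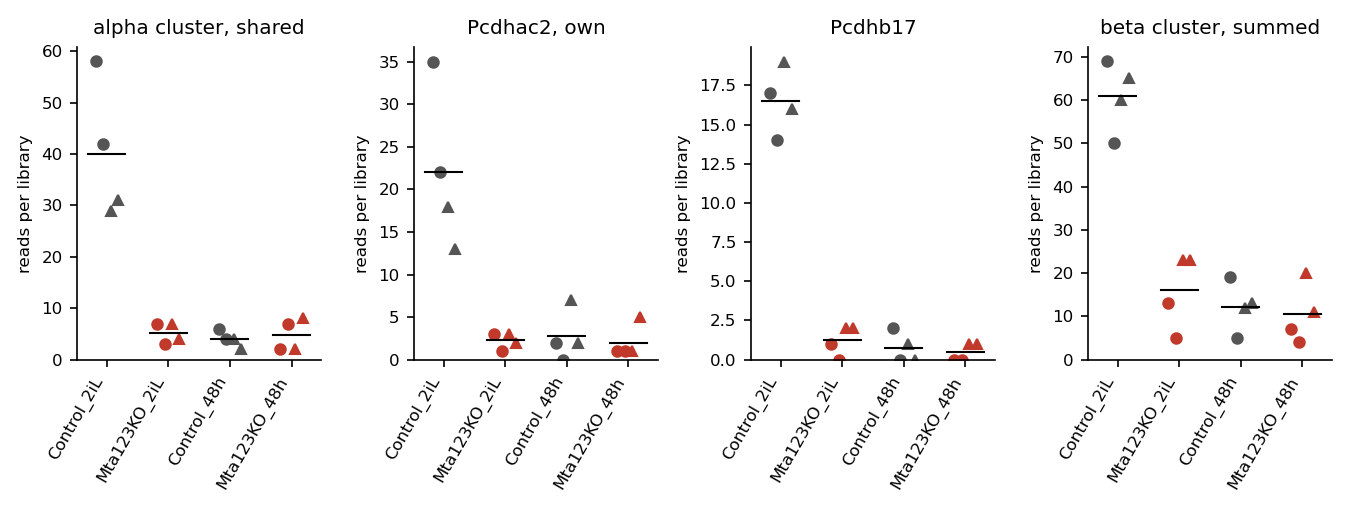
Reads per library for the shared alpha reads, the own reads of Pcdhac2, Pcdhb17 and the 22 beta members summed, in the 4 groups (grey Control, red Mta123KO, circles line 1, triangles line 2, line at the mean of 4 libraries). Control_2iL stands above the other groups in all 4 panels, with 29–58 shared alpha reads against 2–8 elsewhere.

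Within the gamma array the shared reads did not pass the test, while own reads of single members moved in both directions. The shared reads numbered 2597, 2605, 2747 and 3027 in Control_2iL and 2232, 1911, 2370 and 2952 in Mta123KO_2iL, with overlapping groups (log2 fold change −0.10, SE 0.13, adjusted p = 0.57). As deposited, 0 of 21 gamma members were called by edgeR (0 at an unadjusted p under 0.05), with a median of −0.12. The own reads of 20 members were tested, and 4 of them were called lower and 0 higher. The background of genes called lower in the fit with own reads was 7.34%. The median of the 20 was −0.74, with 17 below 0, beside 0.01 over all genes.

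The 4 members called lower were Pcdhga1, Pcdhga2, Pcdhga8 and the C-type member Pcdhgc5. Pcdhga1, the first gene of the array, had own levels of 7.12, 7.32, 9.51 and 9.36 CPM in Control_2iL and 1.95, 1.70, 3.18 and 3.60 in Mta123KO_2iL. The groups lay well apart and both mutant lines were low (log2 fold change −1.67, SE 0.25, adjusted p = 0.00057). Pcdhga2, the second gene, stood at 1.77, 2.36, 2.36 and 2.89 CPM against 0.744, 1.13, 1.15 and 1.04 (−1.20, SE 0.21, adjusted p = 0.0015), again without overlap. Pcdhgc5 stood at 1.81, 2.01, 2.28 and 1.92 CPM against 0.850, 0.884, 0.905 and 0.825 (−1.20, SE 0.15, adjusted p = 0.00023), with the tightest mutant values of the 4.

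Pcdhga8 differed between the mutant lines. It stood at 4.25, 5.63, 4.86 and 4.13 CPM in Control_2iL, at 0.531 and 0.884 in mutant line 1 and at 3.33 and 2.28 in line 2 (log2 fold change −1.43, SE 0.48, adjusted p = 0.032). Only line 1 was far from Control. Other members, chosen after their values were seen, had the same split: Pcdhgb4 stood at 0.382 and 1.06 CPM in line 1 and 2.99 and 2.24 in line 2 beside 2.71–3.66 in Control_2iL, and Pcdhgb5 at 0.616 and 0.725 against 2.64 and 2.37. With mutant line 1 alone, 13 members were called, with line 2 alone 5, and without library number 2_1 in both groups 11. Over all genes, line 1 alone called 3683 higher and 2426 lower of 22836. Line 2 alone called 2745 and 1868 of 22581, and leaving out 2_1 called 2944 and 1668 of 21754.

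Pcdhgc3, the most abundant member, moved the other way. This C-type gene is the one most widely expressed outside the nervous system. Its own level was 8.75, 9.83, 9.18 and 10.3 CPM in Control_2iL and 13.5, 12.9, 11.8 and 11.6 in Mta123KO_2iL. All mutant libraries lay above all Control libraries, but the rise was below the threshold on fold change (log2 fold change 0.39, SE 0.09, adjusted p = 0.0072). Pcdhgc4, the remaining C-type gamma gene, did not pass the test, at 0.651 ± 0.147 and 0.619 ± 0.239 CPM (SD, n = 4). By adjusted p alone Pcdhgb1 (−0.998) and Pcdhga12 (−0.78), both chosen after their values were seen, were also lower, so that by this rule 6 gamma members were lower and 1 higher, where 23.9% of all genes were lower and 27.3% higher. The other 13 tested gamma members did not pass, at log2 fold changes from −1.17 for Pcdhgb5 (adjusted p = 0.054) and −1.01 for Pcdhga3 (adjusted p = 0.06) up to 0.40 for Pcdhgb2 and 0.49 for Pcdhga10.

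Summed by type, own gamma reads went from 31.7 ± 3.6 to 16.8 ± 6.2 CPM for the A type, from 11.1 ± 0.7 to 6.86 ± 3.23 for the B type and from 12.2 ± 0.8 to 13.9 ± 1.0 for the C type (SD, n = 4). The B-type sums overlapped, at 10.3–12.1 CPM in Control_2iL and 3.21–10.6 in Mta123KO_2iL. Pcdhgc3 therefore held 17.4 ± 0.9% of the own gamma reads in Control_2iL and 34.7 ± 10.0% in Mta123KO_2iL, and Pcdhga1 15.1 ± 1.4% and 6.88 ± 1.65%. The Pcdhgc3 share differed between the mutant lines, at 46.4 and 39.2% in line 1 and 24.1 and 29.3% in line 2. For Pcdhga1 it was 6.73 and 5.15% in line 1 and 6.51 and 9.12% in line 2.

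**Figure D3:**
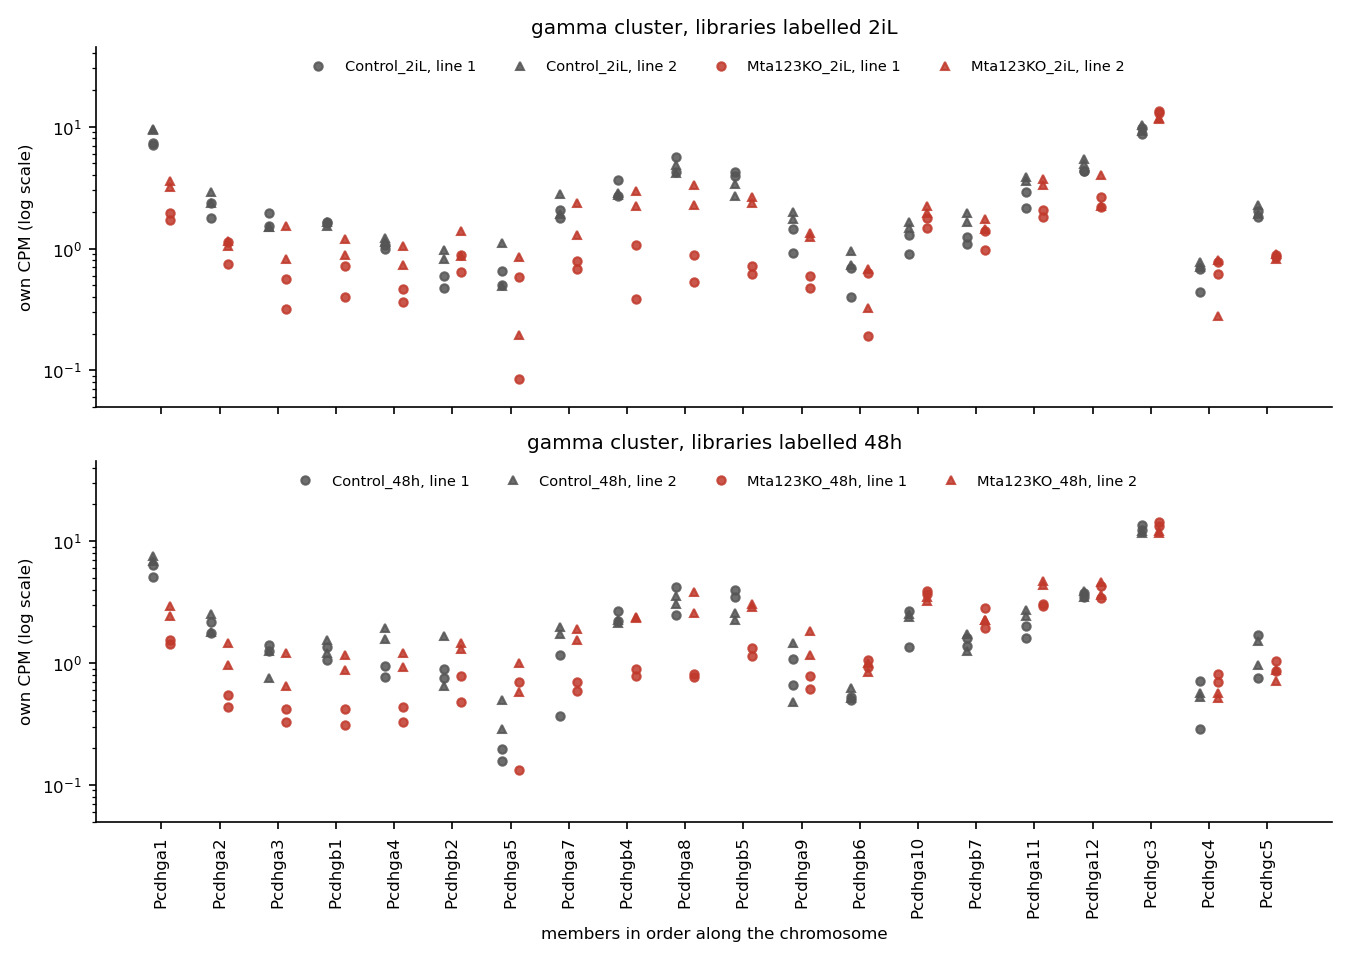
Own CPM per library on a log axis for 20 gamma members in chromosome order, in the libraries labelled 2iL and 48h (grey Control, red Mta123KO, circles line 1, triangles line 2). Pcdhga1 and Pcdhga2 are lower in both mutant lines and both cultures, whereas Pcdhga8, Pcdhgb4 and Pcdhgb5 are low mainly in line 1, and Pcdhgc3 lies at 8.75–14.2 CPM throughout.

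Labelled 48h, the alpha and beta arrays were at the floor in both genotypes. The shared alpha reads were 6, 4, 4 and 2 in Control_48h and 2, 7, 2 and 8 in Mta123KO_48h, the own reads of Pcdhac2 2, 0, 7 and 2 against 1, 1, 1 and 5, and Pcdhb17 had 0–2 reads in every library. None of these was tested. At this depth a difference was not detectable.

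In the gamma array labelled 48h, Pcdhga1 and Pcdhga2 were lower in Mta123KO, and 4 later members of the A and B types were higher by adjusted p alone. The shared gamma reads were 2450, 1571, 1820 and 1988 in Control_48h and 1680, 1611, 2098 and 2384 in Mta123KO_48h (log2 fold change −0.08, adjusted p = 0.51). As deposited, 0 of 21 members were called by edgeR (0 at an unadjusted p under 0.05, and 0 with DESeq2), where 5.93% of all genes were called lower. With own reads, 2 of 20 were called lower, beside 5.98% of all genes.

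Pcdhga1 had own levels of 6.35, 5.03, 7.55 and 6.85 CPM in Control_48h and 1.55, 1.43, 2.43 and 2.91 in Mta123KO_48h (log2 fold change −1.62, SE 0.25, adjusted p = 0.00065). Pcdhga2 stood at 2.15, 1.76, 1.81 and 2.54 against 0.438, 0.549, 0.958 and 1.45 CPM (−1.26, SE 0.35, adjusted p = 0.014). Neither pair of groups overlapped. With the 2 libraries of a line summed, 1 member was called, and without library number 1_1 also 1. Without library number 2_2, 4 were called, and with mutant line 1 alone 8. Over all genes, line 1 alone called 3605 higher and 1832 lower of 22087, beside 2959 and 1260 of 21079 with both lines. Summed lines called 2152 and 794 of 23894, leaving out 1_1 2671 and 1177 of 21249, and leaving out 2_2 3032 and 1235 of 21191.

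By adjusted p alone, where 26.5% of all genes were higher, 4 members were higher in Mta123KO_48h: Pcdhga10 (log2 fold change 0.69, adjusted p = 0.022), Pcdhgb6 (0.83, adjusted p = 0.006), Pcdhgb7 (0.64, adjusted p = 0.016) and Pcdhga11 (0.79, adjusted p = 0.016). All but Pcdhga11 were named after their values were seen. Pcdhga10 stood at 2.65, 1.34, 2.51 and 2.37 CPM in Control_48h and at 3.88, 3.71, 3.23 and 3.45 in the mutant, and Pcdhga11 at 2.03, 1.61, 2.44 and 2.72 against 2.93, 3.07, 4.68 and 4.38. Neither pair overlapped. Pcdhga8 stood at 0.808 and 0.768 CPM in mutant line 1 and 3.83 and 2.58 in line 2, beside 2.47–4.20 in Control_48h, the same split between lines as under the other culture label. Pcdhgc3, at 12.4 ± 0.8 and 12.8 ± 1.2 CPM, and Pcdhgc5, at 1.23 ± 0.45 and 0.872 ± 0.133 CPM (SD, n = 4), did not pass the test. Pcdhga5, at 0.196, 0.158, 0.289 and 0.493 CPM in Control_48h and 0.692, 0.132, 0.579 and 1.01 in Mta123KO_48h (1.10, adjusted p = 0.13), had overlapping groups.

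The antisense and non-coding genes inside the arrays limit these readings. Spans of 13 members overlap an antisense gene, and reads of the strands could not be told apart here because the strand setting of the counting is not given. Gm37118, which lies across Pcdhga1, fell with it (log2 fold change −1.47, SE 0.30, adjusted p = 0.0029 labelled 2iL, and −1.42, adjusted p = 0.0034 labelled 48h). Gm26672, which overlaps Pcdhga10, Pcdhgb7, Pcdhga11 and Pcdhga12, was higher by adjusted p alone in Mta123KO_48h against Control_48h (0.54, SE 0.12, adjusted p = 0.0057). The same held in Mta123KO between cultures (0.63, SE 0.14, adjusted p = 0.014), and members it overlaps were higher in both comparisons. Between cultures in Control it did not pass (0.09, SE 0.15, adjusted p = 0.63), although Pcdhga10 was higher and Pcdhga12 lower there by adjusted p alone. BC037039, which overlaps Pcdhgc3, was higher by adjusted p alone with it in Mta123KO labelled 2iL (0.40, adjusted p = 0.016) and in Control labelled 48h (0.45, adjusted p = 0.0023). Of the 23 such genes, 8 were tested labelled 2iL and 1 was called.

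Between cultures in Control, the alpha reads and Pcdhb17 were lower labelled 48h. This comparison shares the 4 Control_2iL libraries with the mutant comparison labelled 2iL. Shared alpha reads fell from 0.825 ± 0.248 CPM in Control_2iL to 0.0888 ± 0.0283 in Control_48h (log2 fold change −3.17, SE 0.35, adjusted p = 1.5e-05). As deposited, 15 of 36 tested members were called lower from 2iL to 48h, 14 of them alpha (median −3.12) and the other Pcdhb17. The background was 13.2%, and the alpha members and Pcdhb17 again passed the filter only through Control_2iL. With own reads, Pcdhb17 (−4.16, SE 0.53, adjusted p = 5.2e-05), Pcdhac2 (−2.82, SE 0.59, adjusted p = 0.0017) and Pcdhga5 (−1.28, SE 0.40, adjusted p = 0.017) were called lower, again beside 13.2% of all genes. The own reads of Pcdhac2, like Pcdhb17, passed the filter only through Control_2iL. DESeq2 called 8 members, and with no filter on low counts 13 were called. Over all genes, DESeq2 called 2655 higher and 3561 lower of 29814, and the fit with no filter 2877 and 3841 of 35977.

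The gamma array moved less. Its shared reads fell from 57.1 ± 6.7 to 43.9 ± 2.2 CPM (log2 fold change −0.39, SE 0.08, adjusted p = 0.0019), and by adjusted p alone all 21 deposited gamma members were lower, where 29% of all genes were. Pcdhga5 stood at 0.499, 0.658, 0.492 and 1.10 CPM of own reads in Control_2iL and 0.196, 0.158, 0.289 and 0.493 in Control_48h, where the highest Control_48h library stood just above the lowest 2iL library. Pcdhga1 (−0.37), Pcdhga8 (−0.51), Pcdhga12 (−0.39) and Pcdhgc5 (−0.72) were lower, and Pcdhga10 (0.73) and Pcdhgc3 (0.37) higher, by adjusted p alone, where 28.9% of all genes were lower and 29.4% higher. Pcdhgc3 rose from 9.52 ± 0.69 to 12.4 ± 0.8 CPM.

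In Mta123KO no member was called between cultures by edgeR, as deposited or with own reads, with 9.46% of all genes called either way. As deposited, 16 of 21 tested members had an unadjusted p under 0.05 and DESeq2 called 0. With own reads 4 had one, and DESeq2 called 1. By adjusted p alone Pcdhga10 (0.94, SE 0.16, adjusted p = 0.0047) and Pcdhgb7 (0.73, adjusted p = 0.038) were higher labelled 48h, where 12.4% of all genes were. Pcdhgb6 stood at 0.191, 0.634, 0.685 and 0.326 CPM labelled 2iL and 0.923, 1.05, 1.002 and 0.843 labelled 48h (1.06, SE 0.37, adjusted p = 0.074). With the replicate block, which pairs libraries of a line, 1 member was called, Pcdhgb6, and without library number 2_1 also 1. Over all genes, the block called 1366 higher and 1295 lower of 21505, and leaving out 2_1 called 865 and 768 of 21673. With the libraries of a line summed, none of the 24432 genes tested was called by edgeR (3566 had an unadjusted p under 0.05). Pcdhga1 (−0.32) and Pcdhga2 (−0.25) did not pass.

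Whether the genotype difference depended on the culture label could not be read for the alpha array. The interaction, the difference labelled 48h minus that labelled 2iL, was 2.95 for the shared alpha reads (SE 0.64, adjusted p = 0.0033), and as deposited 14 of 36 tested members were called, all alpha, at 2.56 to 3.25, beside 7.66% of genes called higher. These members passed the filter only through Control_2iL and held few reads in the other 3 groups, so the values restate the height of Control_2iL, and a genotype difference labelled 48h was not detectable at this depth. With own reads only Pcdhgb6 was called, at 1.45 (SE 0.47, adjusted p = 0.035), beside 7.61%. Pcdhac2 (2.58, adjusted p = 0.09) and Pcdhb17 (2.97, adjusted p = 0.17) did not pass, nor did Pcdhga1 (0.07, adjusted p = 0.91) or Pcdhga2 (−0.04, adjusted p = 0.96). With the replicate block 2 own calls were made, without library number 2_1 also 2, and without 1_1, 1_2 or 2_2 0. With own reads over all genes, the main fit called 1747 higher and 1234 lower, and the block 1845 and 1271. Leaving out 2_1, 1_1, 1_2 or 2_2 gave 1394, 1166, 1261 or 1440 higher and 1061, 837, 917 or 1036 lower. As deposited, leaving out library number 1_2 left 6 calls, leaving out 2_2 left 7, and summing the libraries of a line left 2. Over all genes, calls fell too, from 1759 higher and 1234 lower of 22973 to 1266 and 917 of 23025 without 1_2. Without 2_2 they were 1449 and 1037 of 23103, and with summed lines 387 and 280 of 25816.

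**Figure D4:**
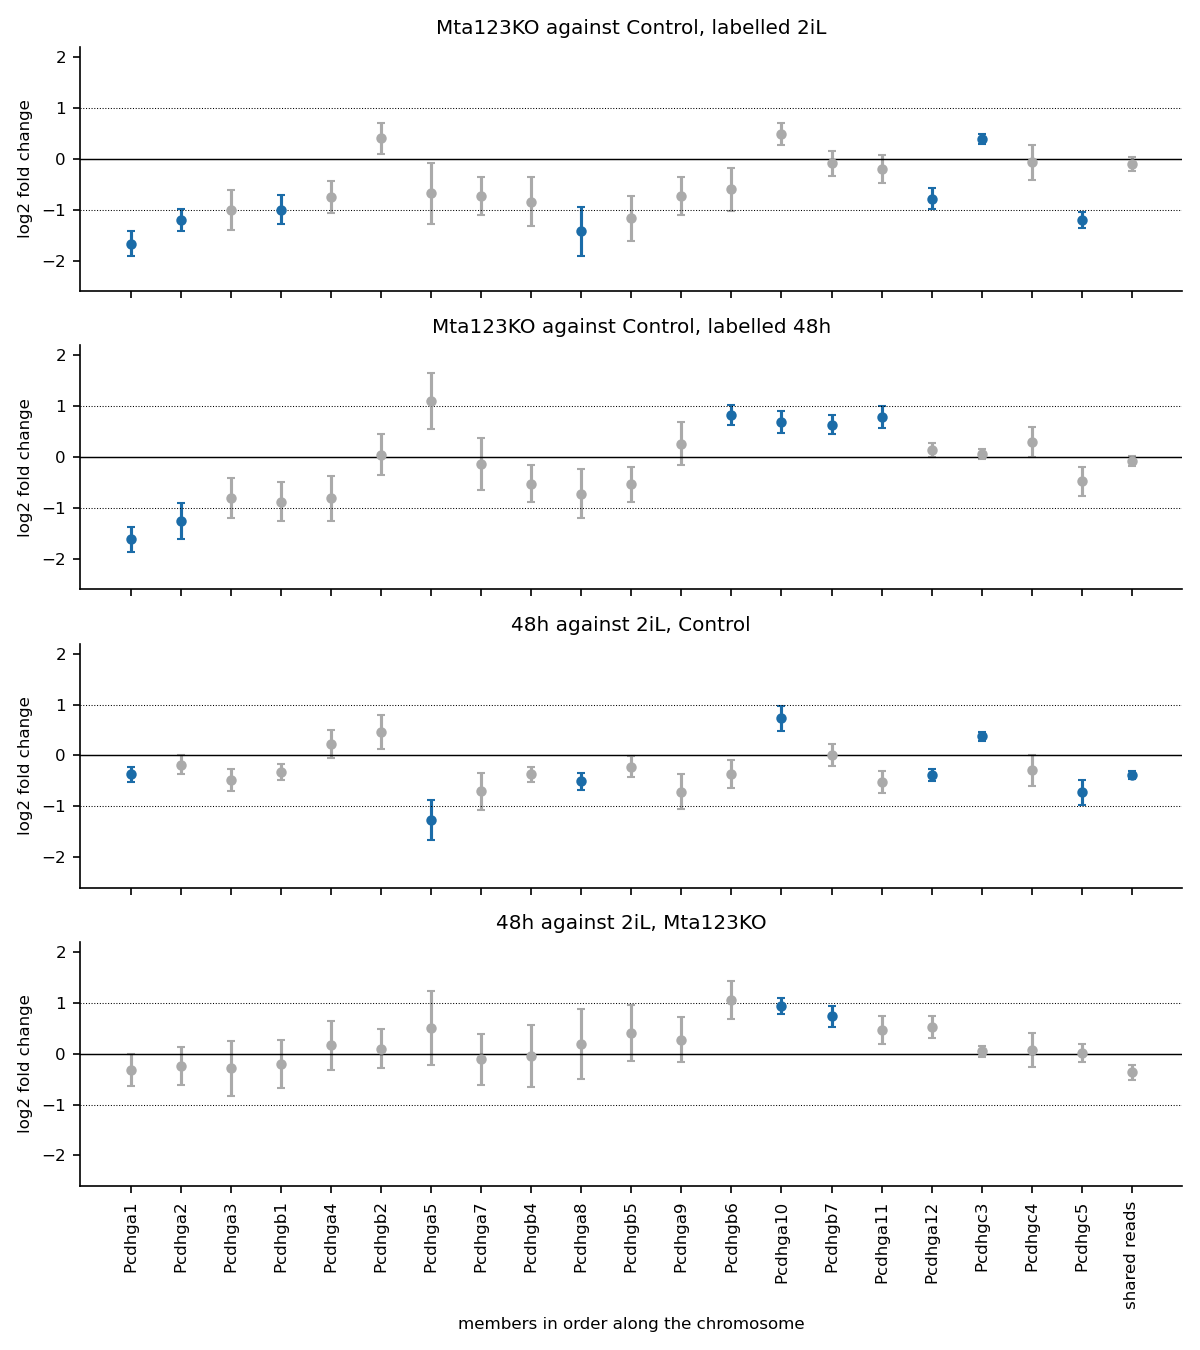
Log2 fold change of own reads ± SE for the gamma members and the shared gamma reads in 4 comparisons (Mta123KO against Control by culture label, and 48h against 2iL by genotype), with blue points at adjusted p under 0.05 and dotted lines at 1 and −1. Pcdhga1 and Pcdhga2 lie below −1 in both mutant comparisons, and no member lies above 1 with a blue point.

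The single mutants, counted with few shared reads, gave member levels directly. The gamma array summed to 101 ± 25.2 CPM in Mta1_flox/flox, 90.1 ± 6.27 in Mta2_WT and 42.4 ± 6.99 in Mta3_flox/flox (SD, n = 3), with parents apart from one another. Per kilobase, Pcdhgc3 led at 6.94 CPM in Mta1_flox/flox and 4.10 in Mta3_flox/flox, and in Mta2_WT it stood at 4.76 beside 4.98 for Pcdhga1. The alpha array summed to at most 2.50 CPM in any library, and Pcdhb22, the leading beta member, was at 0.906–3.91 CPM.

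Pcdhga1, Pcdhga2 and Pcdhga6 of the gamma array were lower in Mta2_KO. Of 23 tested members, 3 were called lower in Mta2_KO and 0 higher, where 6.04% of all genes were called lower. Pcdhga1 stood at 15.6, 17.3 and 15.6 CPM in Mta2_WT and 8.08, 7.63 and 6.88 in Mta2_KO (log2 fold change −1.09, SE 0.09, adjusted p = 1e-05). Pcdhga2 stood at 7.05, 7.82 and 6.52 against 3.29, 2.74 and 2.44 CPM (−1.32, SE 0.13, adjusted p = 4.2e-05). Pcdhga6 stood at 0.516, 0.732 and 0.528 against 0.205, 0.350 and 0.293 CPM (−1.07, SE 0.36, adjusted p = 0.036). None of the 3 pairs overlapped.

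By adjusted p alone 10 gamma members were lower in Mta2_KO, where 24.3% of all genes were. Beside the 3 they were Pcdhga3 (−0.69), Pcdhga4 (−0.81), Pcdhga5 (−0.62), Pcdhga7 (−0.67), Pcdhga8 (−0.52), Pcdhga10 (−0.30) and Pcdhgc3 (−0.46), of which 6 belong to the A type. Pcdhgc3 stood at 16.8, 17.1 and 14.4 CPM against 12.4, 9.56 and 12.8. None of the 6 B-type members passed. Pcdhb22 and Pcdhb14 did not pass (−0.12 and −0.04).

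Markers of other cell states moved with these members in Mta2_KO. The summed neural markers stood at 85.1–95.3 CPM in Mta2_WT and 285–305 in Mta2_KO, with Tubb3 (1.91), Map2 (2.06), Nes (1.36) and Pax6 (1.53) called higher and Sox1 (−1.65) lower. The naive markers went from 5783–6297 to 4332–4649 CPM, with Klf4 (−1.34) and Tbx3 (−1.40) called lower, and the summed trophoblast markers from 105–115 to 147–156 CPM, with Cdx2 (−3.30), Krt8 (−2.57) and Krt18 (−1.73) lower and Tfap2c (1.22) higher. Their part in the results was not tested.

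In Mta3_del/del, 1 of 20 tested members was called, where 5.25% of all genes were called lower. Pcdhgb4 stood at 2.83, 2.22 and 1.496 CPM in Mta3_flox/flox and 1.10, 0.908 and 0.733 in Mta3_del/del (log2 fold change −1.28, SE 0.37, adjusted p = 0.049), and without replicate 1 or replicate 3 no member was called. Over all genes, the main fit called 126 higher and 815 lower of 15522. Without replicate 1 these were 0 and 2 of 15595, and without replicate 3 they were 1 and 1 of 16132. Pcdhga1 stood at 4.75, 5.96 and 3.19 against 3.05, 2.37 and 2.98 CPM (−0.78, adjusted p = 0.096) and Pcdhga2 at 1.45, 2.40 and 1.18 against 0.846, 1.03 and 0.474 (−1.15, adjusted p = 0.10). Pcdhac2 had 9, 35 and 16 reads against 2, 10 and 3 (−2.10, adjusted p = 0.061), with overlapping groups. The fibroblast markers, which would mark feeder cells, summed to 11.03–39.2 CPM in Mta3_flox/flox and 5.67–6.56 in Mta3_del/del, with Col1a1 called lower (−2.15, adjusted p = 0.034) and Col1a2 at −3.37 (adjusted p = 0.064), and their part in these values was not tested.

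In Mta1_del/del 0 of 23 tested members were called by edgeR, 0 had an unadjusted p under 0.05 and DESeq2 called 0, with 0% of all genes called. These fits ignored the pairing of Mta1 libraries by number. The replicate block, which uses it, also called 0 genes, with 468 of 14561 at an unadjusted p under 0.05, beside 50 without it. The deleted gene Mta1 itself was not called (log2 fold change −0.97), so the lack of calls does not show that members were unchanged. The gamma median was −0.41, and Pcdhga1 stood at 13.9, 13.4 and 7.19 CPM in Mta1_flox/flox and 11.7, 7.25 and 7.38 in Mta1_del/del, with overlapping groups. The 3 single-mutant effects were not tested against each other.

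**Figure D5:**
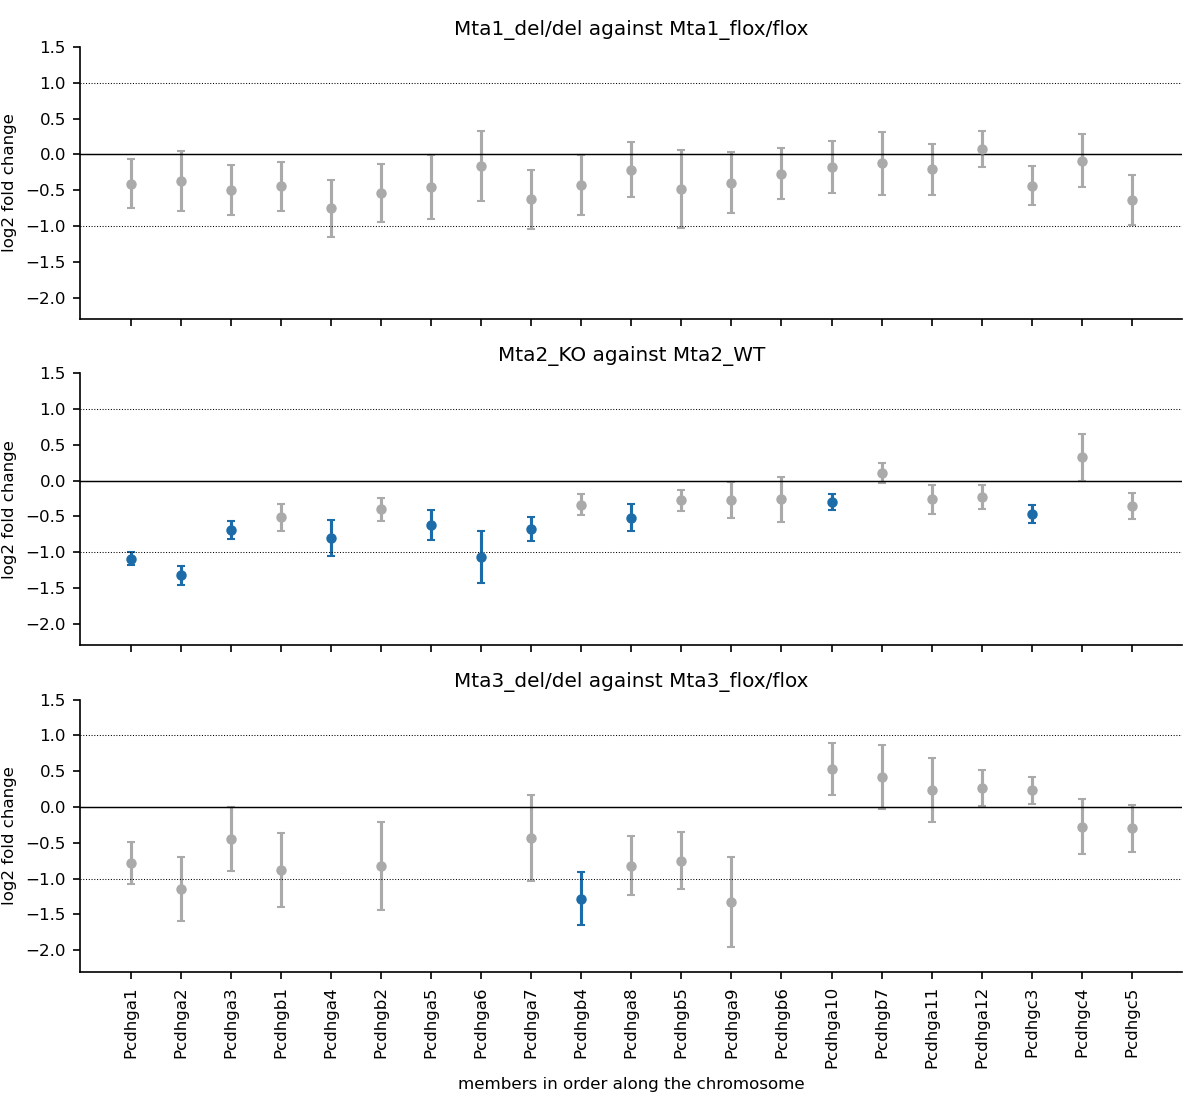
Log2 fold change ± SE of the gamma members in chromosome order for Mta1_del/del, Mta2_KO and Mta3_del/del against their parents (n = 3 and 3), blue at adjusted p under 0.05, with untested members left blank. In Mta2_KO Pcdhga1 at −1.09, Pcdhga2 at −1.32 and Pcdhga6 at −1.07 lie lowest.

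Genes around the arrays and of the pathway were described from lists. Of 30 regulators of the arrays, all tested, 3 were called lower in Mta123KO labelled 2iL, Dnmt3b (log2 fold change −1.97), which methylates DNA de novo, Tet1 (−1.40), which oxidises methylated DNA, and Rest (−1.16), a repressor of neuronal genes, and 1 higher, the methyltransferase cofactor Dnmt3l (1.07). Over all genes 7.43% were called lower and 13.2% higher. The list's median was −0.14, beside 0.01 over all genes. Ctcf (−0.05), Smchd1 (−0.11), Setdb1 (−0.07) and Wiz (−0.12) were not called, nor was the cohesin subunit Rad21 (0.71, adjusted p = 0.0032). Labelled 48h, 3 regulators were called higher and 2 lower, where 14.1% of all genes were called higher and 5.93% lower.

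For the lists that follow, the shares over all genes were 13.2% called higher and 7.43% lower labelled 2iL, and 14.1% and 5.93% labelled 48h. Of 13 non-clustered protocadherins and relatives, 8 were tested labelled 2iL. Pcdh11x (−3.52), Pcdh18 (−3.09) and Pcdh8 (−2.38) were lower and Pcdh12 (3.48) higher, and with Pcdh1 4 were lower in all. Labelled 48h, 4 were tested, Pcdh18 (3.75) and Pcdh1 (1.77) being higher and Pcdh19 (−2.38) and Cdhr1 (−1.79) lower. Among 18 tested partners, Celsr3 (−2.48), an atypical cadherin, was lower and the kinase Ptk2b (1.85) higher. Of 32 tested neighbours within 500 kb of the arrays, 1 was higher and 1 lower labelled 2iL (median −0.06), both of them protocadherins outside the arrays, Pcdh12 and Pcdh1. Labelled 48h, 5 of 30 were higher, near the share over all genes (14.1%). They were Arap3 (3.63), Pcdh1 (1.77), E230025N22Rik (1.25), Fchsd1 (1.06) and Rell2 (1.04), and Hbegf (−1.33) was lower. Apart from Pcdh1 these neighbours, Pcdh19, Cdhr1 and the single markers named for Mta2_KO, Mta3_del/del and the libraries labelled 48h were named after their values were seen.

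Marker lists also differed between the genotypes under both culture labels. In Control_2iL the summed formative markers were at 908–1475 CPM and the neural markers at 124–151, and in Mta123KO_2iL they were at 238–349 and 76.4–82.7. Of the formative list 5 of 6 were called lower and Otx2 higher. The neural list was mixed, with 1 called higher and 3 lower of 10. Of the naive list 4 of 10 were called higher and 0 lower, with sums of 738–787 CPM in Control_2iL and 811–933 in Mta123KO_2iL. Labelled 48h, the naive markers went from 4473–4891 CPM in Control to 2349–3406 in Mta123KO, with Nr0b1 (−2.38), Prdm14 (−1.63) and Tfcp2l1 (−1.01) called lower. The summed primitive endoderm markers went from 4.34–5.01 to 17.9–21.2 CPM, but the list was mixed. Dab2 (4.05) and Pdgfra (1.30) were called higher and Gata4 (−1.98) lower. The part of these lists in the results was not tested. Fibroblast markers summed to at most 7.89 CPM in any Control or Mta123KO library.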

How the data were processed

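The deposited values are gene counts that the authors made with Trim Galore, TopHat2 and featureCounts on GRCm38 with Ensembl genes. How reads on several genes, or strand, were handled is not given in the sources used here. The members and lists were chosen with earlier results of these data known. Symbols were taken from GENCODE annotation. Counts were tested with edgeR 4.0.16 (quasi-likelihood, TMM, filterByExpr; R 4.3.3), each comparison on its own libraries, without a block, over all genes. The interaction used all 16 libraries. Scripts were tested on simulated data. Calls combined the authors' limits, 0.05 for the adjusted p and 1 for the log2 change. Members were named where called, if among the 3 highest per kilobase of an array, or if C-type. CPM used TMM-scaled totals.

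Groups came from the labels. The 4 libraries of a group are 2 of each of 2 lines, so p-values measure the spread between libraries, which are not independent cultures. Correlations of deviations from group means paired libraries of 1 line across cultures (r 0.272 to 0.337 in Control, 0.552 to 0.586 in Mta123KO) and Mta1 libraries by number (0.434 to 0.702), but no other comparison. Alternatives were DESeq2 1.42.0, its size factors, no filter, a replicate block, leaving out each replicate, 1 mutant line, summed lines, spike-in scaling, a fit of all groups and no fold threshold. Promoter sequences were not used here, and 1 marker is not reported here.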

Additional observations from a re-analysis of the deposited data

Results flagged for a closer look

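Among 84 groups of 4 libraries, 2 had a library far from the other 3, and chance gives about 1 in 20. Own reads of Pcdhac2 stood at 0.0916 CPM in Mta123KO_48h 2_2 and at 0.0220–0.0231 in the others. The shared alpha reads (the lowest count of the array in a library) stood at 0.0469 CPM in Control_48h 2_2 and at 0.0965–0.107 in the others. Both rest on 6 reads or fewer per library.

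The alpha members passed the interaction test of genotype and culture label. They passed the filter on low counts only through Control_2iL and held few reads in the other 3 groups, so this does not show that the genotype difference depends on culture. With deposited counts the log2 interaction was 3.25 for Pcdha1, 3.11 for Pcdha2, 3.08 for Pcdha8, 2.97 for Pcdha9, 2.94 for Pcdha4, 2.86 for Pcdha6 and for Pcdhac1, 2.83 for Pcdha5, 2.82 for Pcdha3 and for Pcdhac2, 2.76 for Pcdha12 and 2.75 for Pcdha11. These members share most of their reads, and the shared reads had an interaction of 2.95. With own reads Pcdhgb6 differed, at 1.45.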

How the results depend on the processing

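No result reversed under any alternative run, and plain library totals left every summed level within its spread. Calls that moved with own reads were as follows. For Mta123KO against Control labelled 2iL, 6 members were called, and 13 with mutant line 1 alone. Labelled 48h, 2 were called, 1 with summed lines, 8 with mutant line 1 alone and 6 without a fold threshold. Line 1 alone also gave more calls over all genes under both culture labels. For the cultures in Control, 3 were called, 8 with DESeq2, 13 with no filter and 9 without a fold threshold. For the cultures in Mta123KO, 0 were called, 1 with DESeq2, 1 with the replicate block and 2 without a fold threshold. For the interaction, 1 was called, 2 with the replicate block or without a fold threshold, and 0 with no filter, summed lines or spike-in scaling. With deposited counts, 15 calls between cultures in Control became 36 without a fold threshold, and 14 interaction calls became 2 with summed lines. Over all genes, summed lines took the interaction calls from 1759 higher and 1234 lower to 387 and 280. Mta2 went from 3 to 10 without a fold threshold, and Mta3 from 1 to 2 with the replicate block, whose numbers pair no libraries there. The block moved no other count by over 1.5 times.

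Leaving out each replicate gave, with own reads, 5 to 11 calls labelled 2iL, 1 to 4 labelled 48h, 2 to 3 between cultures in Control, 0 to 1 in Mta123KO and 0 to 2 for the interaction. With deposited counts it gave 6 to 14 for the interaction, 2 to 3 for Mta2 and 0 to 1 for Mta3, and left the other counts as they were. Leaving out any replicate also lowered the interaction calls over all genes. For Mta3, leaving out replicate 1 left 0 higher and 2 lower over all genes, and leaving out replicate 3 left 1 and 1. Of the tests of single members, 479 with deposited and 257 with own reads kept their side of the threshold, and 38 and 68 lost it. The causes were not tested. Spike-in scaling moved the median of all genes by −0.18 (labelled 48h), 0.18 (cultures in Control) and −0.22 (interaction). Alpha and beta members rest on few reads, which limits every statement on them, and own reads are lower bounds.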
